A study of Mus musculus with 16 samples.

Results

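The MHC class II genes measured here are the classical chains H2-Aa, H2-Ab1 and H2-Eb1, the invariant chain Cd74, the peptide-loading genes H2-DMa, H2-DMb1 and H2-Oa, and the transactivator gene Ciita. They were picked by gene symbol and make up 8 of the 23355 genes in the deposited expression table. All 8 passed the filter on low values (10 or more normalized counts in 7 or more libraries), as did 15007 genes in all. A normalized count is a gene's read count divided by a size factor of its library.

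RNA was sequenced from 16 brain tumours of mice labelled C57BL/6, as a model of diffuse midline glioma. RCAS is an avian virus that infects only cells bearing its receptor Tv-a, which the Nestin promoter drives here in neural progenitor cells. Every tumour was started on postnatal day 3 with RCAS-PDGFA and RCAS-Cre in Nestin Tv-a; p53 fl/fl mice, so PDGF-A and p53 loss are shared by both groups. The groups differ in the last virus: RCAS-H3.3WT (9 tumours) or RCAS-H3.3K27M (7 tumours), which carries H3.3 with methionine in place of lysine 27. No other treatment was given, and tumours were taken at an endpoint whose age is not stated. Each library is 1 whole tumour, so the RNA of the transformed cells is mixed with that of the host's immune and vessel cells. The table numbers its libraries 1 to 16 and averages 1 to 9 and 10 to 16 apart; these were taken as H3.3WT and H3.3K27M because only those group sizes match the labels. Which numbered library is which labelled tumour is not known, and the sign of each difference depends on the group assignment. The sample labels (7 and 9) do not match the series' design text, where 5 H3.3K27M and 3 other tumours are counted. Library 8 held 11439144 recovered reads and the other libraries 30377560 to 41730692. The glioma progenitor marker Pdgfra held 31738 to 188416 normalized counts in the H3.3WT and 74316 to 250718 in the H3.3K27M libraries, and Sox10, another, 26200 to 60268 and 28317 to 57671.

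MHC class II molecules carry peptides from proteins taken up into endosomes to the cell surface, where CD4+ T cells read them. The invariant chain encoded by Cd74 fills the groove of the newly made molecule, H2-M (H2-DMa with H2-DMb1 or H2-DMb2) swaps its remnant for antigen peptides, and H2-O (H2-Oa with H2-Ob) holds H2-M back. Dendritic cells, B cells and macrophages make class II constitutively, whereas microglia and many other cells make it once interferon gamma induces Ciita. Ciita does not bind DNA itself: it docks on the RFX complex, CREB and NF-Y, which sit on the X, X2 and Y boxes of class II promoters. In C57BL/6 mice the H2-Ea gene is defective, so the H2-E molecule is not formed although H2-Eb1 is transcribed.

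Promoter pieces with matches to the X and Y box cores are shown first because these boxes are where the partners of Ciita are known to bind. RefSeq promoters of mouse build GRCm38.p6 (250 bases before to 50 after the start) held 5 of the 8 members: H2-Aa, H2-Eb1, H2-DMa, H2-DMb1 and H2-Oa. Of these, 4 carried GNAAC, the core of the X box, followed 25 to 28 bases on by GATTGG, the core of the Y box, on the gene's own strand. The pieces below run 5′ to 3′ on that strand with both cores in capitals.
H2-Aa, chr17:34287852-34287919, minus strand: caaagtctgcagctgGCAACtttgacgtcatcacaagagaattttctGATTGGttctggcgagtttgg
H2-Eb1, chr17:34305761-34305827, plus strand: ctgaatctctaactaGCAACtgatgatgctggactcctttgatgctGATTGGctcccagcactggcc
H2-DMb1, chr17:34153082-34153149, plus strand: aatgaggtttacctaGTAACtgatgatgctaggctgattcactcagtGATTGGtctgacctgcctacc
H2-Oa, chr17:34092288-34092355, plus strand: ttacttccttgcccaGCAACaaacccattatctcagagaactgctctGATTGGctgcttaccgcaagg
The cores lay 26 bases apart in H2-Eb1 and 27 apart in the other 3, and the Y core began 44 (H2-Oa) to 62 bases (H2-DMb1) before the start. Of 32851 RefSeq promoters, 84.8% held GNAAC and 16.1% GATTGG on either strand, and some held both. In a spaced pair the letters of the cores do not overlap. The spaced pair stood on the gene strand of 36 promoters (0.11%) and on either strand of 81 (0.247%). Of 3 class II genes outside the set with a listed promoter, H2-Eb2 carried the pair, and H2-Ob and H2-DMb2 did not. H2-DMa had 2 listed starts, 1 with GATTGG and neither with the pair. The letters and the spacing were chosen after these promoters had been read, so the shares describe them and test nothing.

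All members but Cd74 and Ciita lie together in the MHC on mm10 chromosome 17, from H2-Oa (chr17:34092378-34095234) through H2-DMa (chr17:34122831-34139101), H2-DMb1 (chr17:34153190-34160229), H2-Ab1 (chr17:34263226-34269418) and H2-Aa (chr17:34282750-34287771) to H2-Eb1 (chr17:34305866-34316674), as the table gives them. Ciita lies at chr16:10480071-10527640 and Cd74 at chr18:60803848-60812652. Some reads can be miscounted, because the strand setting is not given in the sources used here and reads were 50 bp long. In the GENCODE transcripts, 369 of the 1629 distinct 50-base words of H2-DMb1 also occur in its copy H2-DMb2. The antisense neighbours Brd2, BC051537 and Dexi share 314 of 3723 words of H2-DMa, 225 of 1454 of H2-Oa and 139 of 9496 of Ciita. H2-Ab1, H2-Eb1 and Cd74 share none with another gene, and H2-Aa 20 of 3892.

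Cd74 and the classical chains held at least 929 normalized counts in every tumour, and for all 8 genes the SD within either genotype exceeded the difference between the genotype means. Cd74, the invariant chain, ran from 2947 to 19927 normalized counts in H3.3WT (median 10402) and from 3116 to 21824 in H3.3K27M tumours (median 18801). Libraries 1, 2, 6 and 8 of H3.3WT lay at 2947 to 4962 and libraries 14, 15 and 16 of H3.3K27M at 3116 to 5734, whereas the other 9 libraries, 5 of H3.3WT and 4 of H3.3K27M, lay at 10402 or above. The groups overlapped over nearly their whole range. In whole tumours, fewer cells of a type and less RNA per cell cannot be told apart, here or in any level below.

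The classical chains were also high in some tumours of each genotype and low in others, with overlapping groups. H2-Aa, the alpha chain of H2-A, had a lowest, median and highest value of 1003, 3747 and 8331 normalized counts in H3.3WT and of 1234, 6323 and 9273 in H3.3K27M tumours. H2-Ab1, its beta chain partner, had 1512, 4268 and 10605 in H3.3WT and 1646, 6294 and 11923 in H3.3K27M. H2-Eb1, the beta chain of H2-E, had 929, 3402 and 9428 in H3.3WT and 989, 5738 and 8458 in H3.3K27M. For H2-Aa, H2-Ab1, H2-Eb1 and H2-DMb1 the same 6 libraries were the highest (3, 5, 9, 11, 12 and 13) and the same 7 the lowest (1, 2, 6, 8, 14, 15 and 16). Cd74 had the same 7 lowest libraries.

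The peptide-loading genes were lower and their spread was uneven. H2-DMa, the alpha chain of H2-M, spanned 649 to 2216 normalized counts in H3.3WT (median 1021) and 441 to 2285 in H3.3K27M (median 1416). Its highest library held 5.18 times its lowest, the smallest span of the 8 genes. H2-DMb1, the beta chain, spanned 148 to 915 in H3.3WT (median 301) and 189 to 1099 in H3.3K27M (median 492). H2-Oa, the alpha chain of the inhibitor H2-O, spanned 5.41 to 88.4 in H3.3WT (median 37.7) and 8.998 to 120 in H3.3K27M (median 24.3). H2-Oa is near the limit of counting in the lowest libraries, where 3 reads are worth 2.71 normalized counts in library 1 and 8.52 in library 8, and such limits cover counting error only. Library 6, low for the classical chains at 1790 for H2-Aa, was among the highest for H2-Oa at 80.7.

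Ciita, the transactivator, was the most variable member. Its H3.3WT libraries 1 to 9 held 13.5, 40.1, 364, 72.6, 136, 48.4, 148, 28.4 and 866 normalized counts. Its H3.3K27M libraries 10 to 16 held 171, 332, 331, 748, 77.4, 211 and 133. Every H3.3K27M tumour lay above the H3.3WT median of 72.6, but 4 H3.3WT tumours (libraries 3, 5, 7 and 9) lay within the H3.3K27M range or above it. The H3.3WT mean of 191 ± 275 (SD, n = 9) was 106 without library 9, and the H3.3K27M mean was 286 ± 225 (SD, n = 7). Gene-level values do not separate the Ciita promoters used by dendritic cells, by B cells and after interferon gamma.

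**Figure D1:**
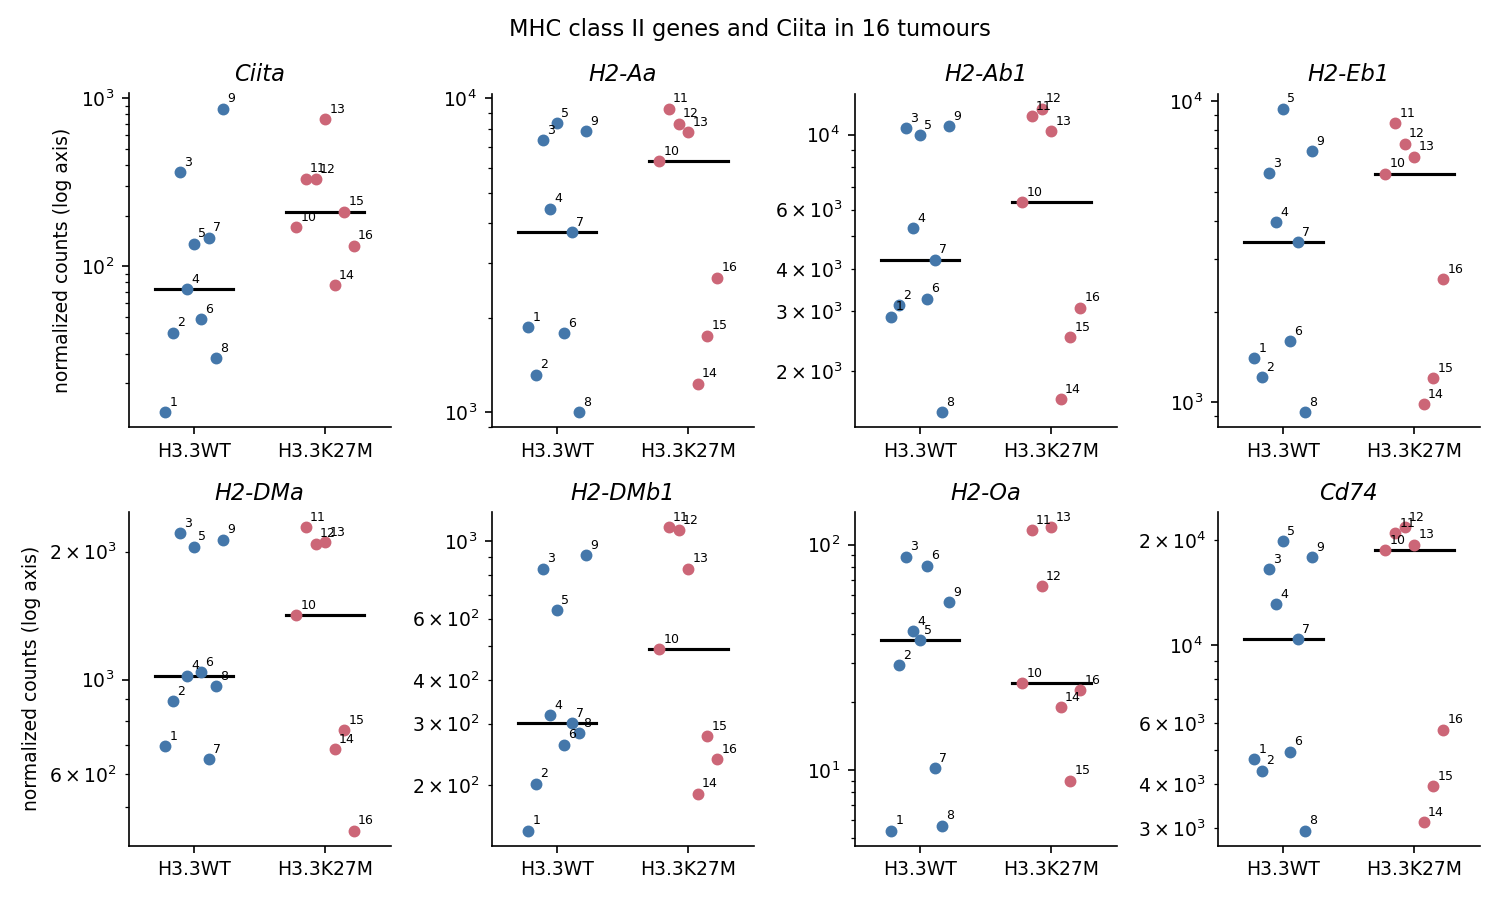
Normalized counts (log axis) of the 8 genes in each tumour, with H3.3WT (9 libraries) and H3.3K27M (7 libraries) side by side. Points are libraries with their number in the deposited table, and bars are medians; in each panel the groups overlap, and libraries 1, 2, 8, 14 and 15 tend to the bottom.

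Per kilobase of merged exons, Cd74 stood first with 6281 ± 3917 normalized counts in H3.3WT tumours (SD, n = 9) against 7984 ± 5145 in H3.3K27M tumours (SD, n = 7), and it exceeded the next gene in 16 of 16 libraries. H2-Ab1 followed at 2222 ± 1409 and 2616 ± 1723, then H2-Eb1 at 1974 ± 1526 and 2404 ± 1564. H2-Ab1 exceeded H2-Eb1 in 12 of 16 libraries, so these neighbours did not separate beyond their spread. Below them stood H2-Aa at 1104 ± 781 and 1407 ± 887, H2-DMa at 376 ± 187 and 406 ± 225, and H2-DMb1 at 257 ± 170 and 357 ± 237. H2-Oa (27.98 ± 21.9 and 38.2 ± 33.6) and Ciita (20.0 ± 28.9 and 30.0 ± 23.6) were lowest per kilobase and also not separated, H2-Oa being the higher in 12 of 16 libraries. The merged exons of H2-Aa span 3798 bp and its longest coding transcript 1128 bp. Per kilobase of the longest coding transcript H2-Aa moved above H2-Eb1, and the rest of the order held.

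The comparison of H3.3K27M with H3.3WT asks whether the mutant histone goes with another level of antigen presentation genes. No member passed the test: by limma on log2(value + 1) with Benjamini-Hochberg adjustment over all genes, 0 of 8 members and 0 of 15007 genes (0.0%) had an adjusted p under 0.05. At an unadjusted p under 0.05 stood 0 of 8 members and 2298 genes (15.3%). The quasi-likelihood test of edgeR, run on recovered reads, also called 0 members and 0 genes (0.0%). DESeq2's Wald test called 0 members and 107 genes (0.713%), and limma voom with quality weights 0 members and 2 genes (0.0133%). An adjusted p under 0.05 was listed for 0 of 8 members and for 213 genes (1.41%) in the authors' deposited table.

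Ciita had the largest difference of the 8, a log2 fold change (H3.3K27M minus H3.3WT) of 1.33 ± 0.71 (SE) with a 95% interval of -0.15 to 2.81 and an adjusted p of 0.372. On the recovered reads edgeR gave 0.57 and DESeq2 0.58 for Ciita. The authors' deposited table lists 0.291 ± 0.327, and the cause of these gaps was not tested. H2-Oa followed with 0.45 ± 0.67, H2-DMb1 with 0.42 ± 0.45, H2-Aa with 0.38 ± 0.53 and H2-Eb1 with 0.31 ± 0.55. Cd74 had 0.26 ± 0.51, H2-Ab1 0.16 ± 0.47 and H2-DMa 0.02 ± 0.37. Adjusted p ran from 0.677 (H2-DMb1) to 0.983 (H2-DMa) for these 7. The intervals are wide: for Cd74 the data allow from 0.573-fold to 2.50-fold, for H2-Ab1 from 0.561-fold to 2.23-fold, and for H2-DMa from 0.594-fold to 1.74-fold. A missed threshold therefore does not show equal levels.

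All 8 log2 fold changes were above 0, as were 50.5% of those of all genes, with a median of 0.35 against 0.00 over all genes tested. The members vary together between tumours, so their shared sign is not 8 separate observations. With libraries 6 and 8 left out, the log2 fold change was -0.15 for H2-Ab1, -0.07 for Cd74, -0.04 for H2-Eb1 and -0.04 for H2-DMa. For H2-Ab1 it was also below 0 without library 8, 11 or 12 alone, at -0.04, -0.02 and -0.03. For H2-DMa it was below 0 when any 1 of 9 libraries was omitted, with -0.14 as its lowest value. Of the 8 members, 0 had groups that did not overlap, against 5 genes of 15007 (0.0333%).

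**Figure D2:**
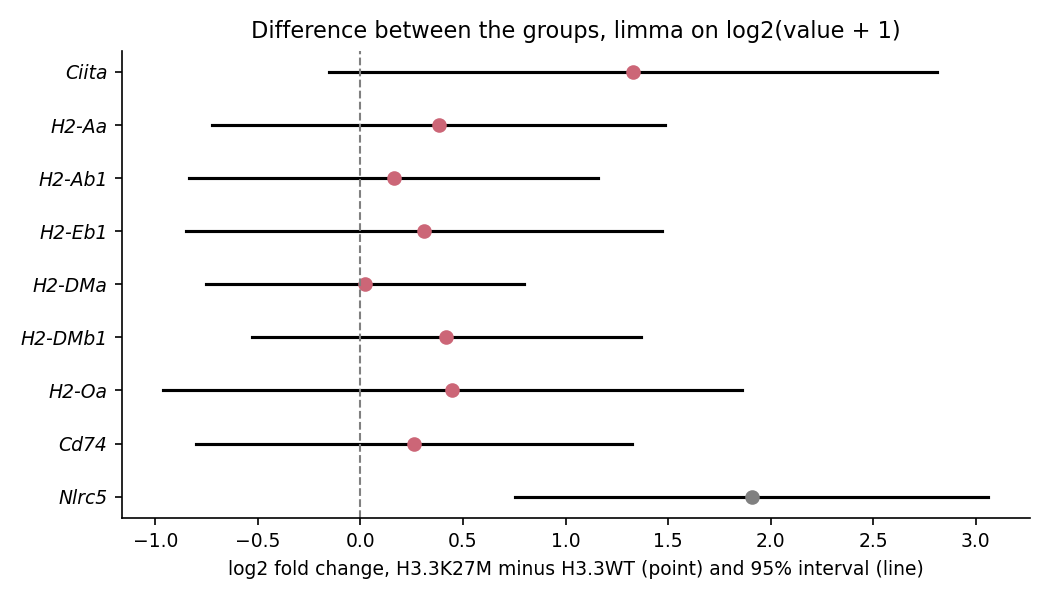
Log2 fold change of each gene (H3.3K27M minus H3.3WT, limma on log2(value + 1)) as a point with its 95% interval as a line; Nlrc5, the class I transactivator gene, is in grey for comparison. The intervals of all 8 class II genes and Ciita cross 0, from the widest, Ciita at -0.15 to 2.81, to the narrowest, H2-DMa at -0.75 to 0.80.

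The spread of the members across the 16 tumours was large against that of other genes. On the log2(value + 1) scale the SD over 16 libraries was 1.65 for Ciita, 1.40 for H2-Oa, 1.21 for H2-Eb1 and 1.16 for H2-Aa. It was 1.11 for Cd74, 1.03 for H2-Ab1, 0.98 for H2-DMb1 and 0.78 for H2-DMa, against a median of 0.48 over all genes tested. H2-Oa is near the limit of counting in its lowest libraries, so its SD also holds counting error. Of the genes tested, 96.4% had a smaller SD than Ciita, 88.2% than Cd74 and 76.6% than H2-DMa. Within H3.3WT the highest Ciita library held 64.0 times the lowest, and within H3.3K27M 9.66 times.

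**Figure D3:**
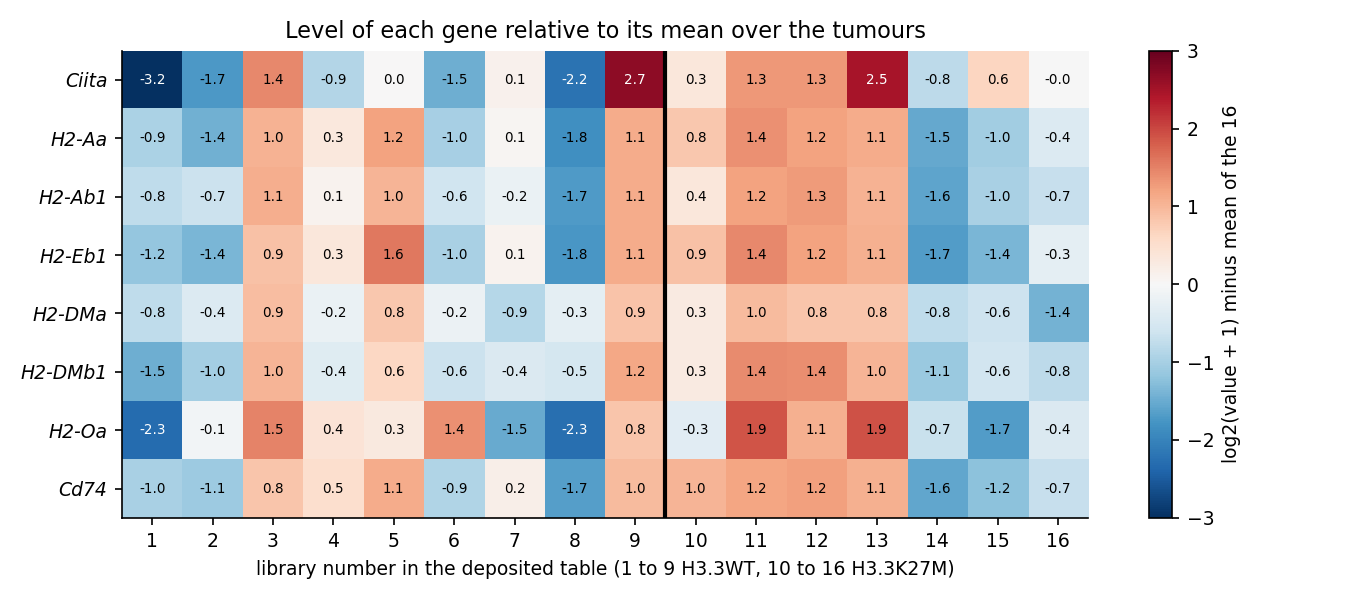
Each gene's log2(value + 1) minus its mean over the 16 tumours (colour and printed value), with H3.3WT libraries left and H3.3K27M libraries right of the black line. Libraries 3, 5, 9, 11, 12 and 13 are above the mean for all 8 genes, and libraries 1, 2, 8, 14 and 16 below it, so both groups hold high and low tumours.

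The members varied together across tumours to unequal degrees. Among the 28 pairs of members the highest Pearson r of log2(value + 1) over 16 libraries were 0.992 for H2-Aa with H2-Eb1, 0.988 for H2-Aa with Cd74 and 0.987 for H2-Eb1 with Cd74. H2-Aa and H2-Ab1, the chains of H2-A, had 0.970, and H2-DMa and H2-DMb1, the chains of H2-M, 0.912. The lowest were 0.639 for Ciita with H2-Oa and 0.639 for Ciita with H2-DMa. These coefficients describe whole tumours that share their library scaling.

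Ciita varied with each of its targets. For H2-DMb1, Pearson r was 0.837 and Spearman rho 0.803 over 16 libraries (two-sided permutation, adjusted p = 4.9e-04 and 0.00217 over the 7 relations). Over all 7, r ran from 0.639 to 0.837 and rho from 0.615 to 0.803, with permutation adjusted p up to 0.00834 for r and 0.0133 for rho. Without libraries 1 and 9, the farthest from the Ciita median, r ran from 0.535 to 0.790. Within the 9 H3.3WT libraries r ran from 0.612 (H2-Oa) to 0.922 (H2-DMb1), and 6 of 7 passed with exact permutation adjusted p between 0.00171 and 0.0268. H2-Oa had 0.0814. By rank, rho within H3.3WT was 0.60 for H2-DMa and 0.667 for H2-Oa (unadjusted exact permutation p = 0.0968 and 0.0589). For the other members it was 0.767 to 0.933. Within the 7 H3.3K27M libraries r ran from 0.716 to 0.824, with an exact permutation adjusted p of 0.0675 for each. The tumours did not line up exactly. Library 15 had 211 normalized counts of Ciita, above libraries 5 and 10 at 136 and 171, yet 1757 of H2-Aa against 8331 and 6323.

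Nlrc5, the transactivator gene of MHC class I, did not divide the tumours as the class II genes did. In libraries 14, 15 and 16, the H3.3K27M tumours with low class II, Nlrc5 held 2695, 3894 and 1890 normalized counts, above the 315 to 820 of libraries 1, 2, 4, 6, 7 and 8. Libraries 4 and 7 had Nlrc5 at 797 and 623 with Cd74 at 13146 and 10402. Over all 16 libraries Nlrc5 still had r of 0.559 (H2-Oa) to 0.858 (Ciita) and rho of 0.585 to 0.862 with the members (permutation adjusted p up to 0.0258 and 0.0193 over 8 relations, added after the values were seen), and r of 0.501 to 0.824 without libraries 2 and 8. Within H3.3WT r ran from 0.666 to 0.946 (exact permutation adjusted p up to 0.047), and within H3.3K27M from 0.541 to 0.887, where H2-DMa alone had an exact permutation adjusted p under 0.05, at 0.0206. Nlrc5 had a log2 fold change of 1.91 ± 0.55 (adjusted p = 0.257 by limma). The log2 ratio of Ciita to Nlrc5 within a library averaged -3.48 ± 0.90 in H3.3WT tumours (SD, n = 9) against -4.06 ± 0.73 in H3.3K27M tumours (SD, n = 7), a difference that did not pass (two-sided exact permutation p = 0.186, adjusted p = 0.52 over 3 ratios). The ratio of H2-Oa to H2-DMa, inhibitor over catalyst, averaged -5.39 ± 1.11 and -4.97 ± 0.82 (exact permutation adjusted p = 0.52). That of H2-Ab1 to Cd74 averaged -0.86 ± 0.30 and -0.96 ± 0.29 (exact permutation adjusted p = 0.52). Counts of genes of unlike length enter these ratios, so only their change between libraries can be read.

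**Figure D4:**
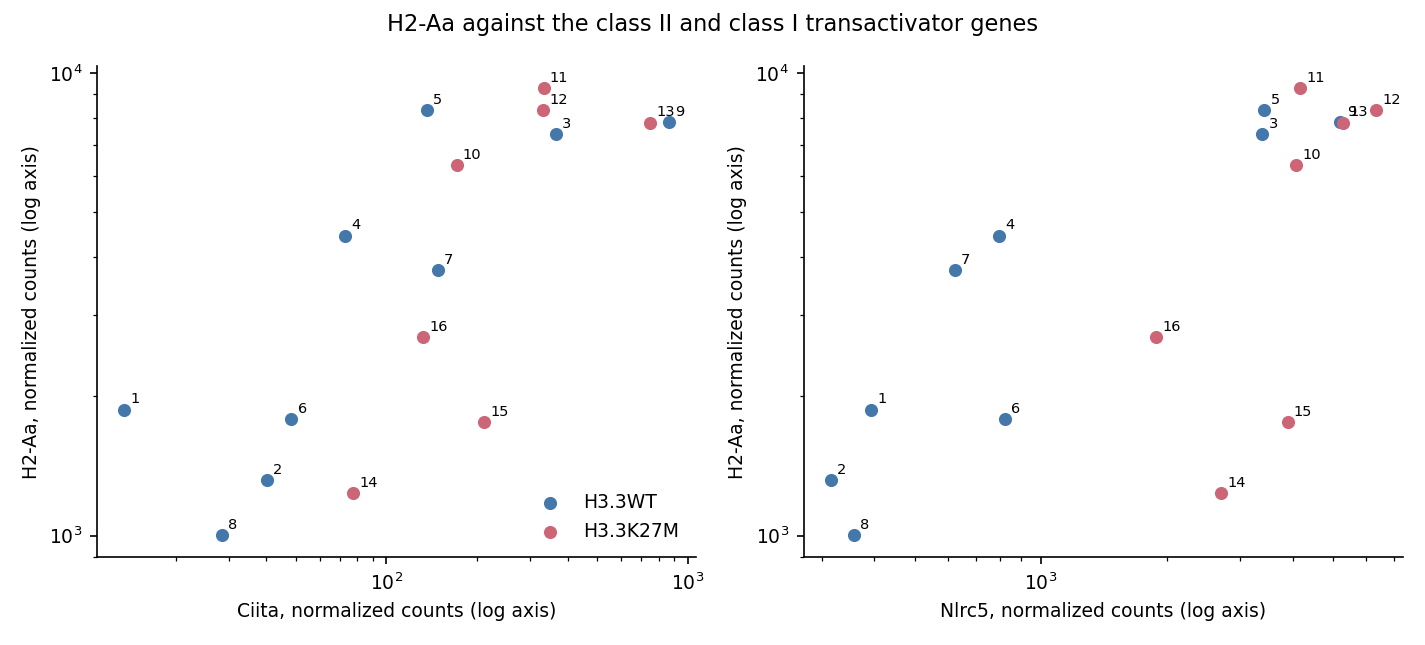
H2-Aa against Ciita (left) and against Nlrc5 (right) in normalized counts on log axes, 1 numbered point per tumour, blue for H3.3WT and red for H3.3K27M. Libraries 14, 15 and 16 lie at 1234 to 2687 of H2-Aa with Nlrc5 at 1890 or more, apart from the H3.3WT libraries of like H2-Aa.

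None of the tested genes for the partners of Ciita, or for the interferon gamma route to it, passed the test between the groups. Nor did any other gene: 0 of 15007 genes passed (0.0%), and 50.5% had a log2 fold change above 0. Of the 8 enhanceosome genes, which encode RFX, NF-Y and CREB family proteins, 5 had a log2 fold change above 0 and 3 below, 0 passed, and the median was 0.13. Rfx5, the DNA-binding subunit of RFX, averaged 701 ± 245 normalized counts in H3.3WT tumours (SD, n = 9) against 958 ± 141 in H3.3K27M tumours (SD, n = 7) (log2 fold change 0.51 ± 0.19, limma adjusted p = 0.266). Rfxap, another RFX subunit, averaged 1509 ± 180 and 1392 ± 123. Of 10 tested genes of the interferon gamma route to Ciita, 7 were above 0 and 3 below, 0 passed, and the median was 0.12. Ifngr2, a chain of the interferon gamma receptor, averaged 2022 ± 579 and 1342 ± 299 (-0.55 ± 0.21, limma adjusted p = 0.266). Ifng itself was below the filter: it was at 0 in 6 of 16 libraries and at most 9.25 normalized counts, which is few reads in any library.

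None of the other genes listed for the class II pathway passed the test, as was so for all 15007 genes (0.0% called, 50.5% above 0). Of 8 tested genes of this list, which holds endosomal enzymes and further class II related genes, 2 were above 0 and 6 below, 0 passed, and the median log2 fold change was -0.25. Lgmn, an endosomal protease gene, averaged 9979 ± 2017 and 7931 ± 2035 (-0.35 ± 0.16, limma adjusted p = 0.322). Ifi30, the thiol reductase of endosomes, averaged 1204 ± 274 and 923 ± 375, and the protease gene Ctss, which cuts the invariant chain, 8653 ± 1650 and 7668 ± 2572. H2-DMb2, the copy of H2-DMb1, averaged 36.5 ± 15.9 and 45.0 ± 31.1, and H2-Ob, partner of H2-Oa, 43.7 ± 33.9 and 31.4 ± 12.7. H2-Ob was lowest in library 15 at 5.73 and highest in library 6 at 116, the library where H2-Oa was high relative to the classical chains.

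No relation between a member and the summed microglia markers passed the test across all tumours. The 13 microglia genes, all tested, summed to 19734 to 43258 normalized counts in H3.3WT and 22663 to 35652 in H3.3K27M libraries, none was at 0 in any library, and 8 had log2 fold changes above 0 and 5 below, with 0 called. Over all genes tested 50.5% had a log2 fold change above 0, and 0 of 15007 were called (0.0%). The mean microglia sum was 31266 in H3.3WT and 28248 in H3.3K27M. C1qa, C1qb and C1qc averaged 6956, 6392 and 6319 of it in H3.3WT and 5377, 4930 and 5101 in H3.3K27M. The complement genes thus made up much of this sum, and the other markers weigh less in it. Pearson r of the members with this sum ran from 0.00 to 0.26 and Spearman rho from -0.03 to 0.29 over 16 libraries (unadjusted permutation p of 0.32 or more for r, 0 of 16 relations with the microglia and dendritic sums passing after adjustment). Without libraries 1 and 6, the farthest from the median sum, r ran from -0.15 to 0.15. Libraries 6 and 8 had the highest sums, 43258 and 39742, with Cd74 at 4962 and 2947. Within H3.3WT r ran from -0.39 to 0.22 (exact permutation adjusted p at least 0.692). Within H3.3K27M it ran from 0.45 to 0.83, with exact permutation adjusted p of 0.261 to 0.420, and Cd74 had 0.834 (unadjusted exact p = 0.0329). Whether the groups differ in this relation was not tested.

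Dendritic cells are among the cells that express class II at rest. The 10 dendritic cell markers summed to 1708 to 6960 normalized counts in H3.3WT and 2756 to 8214 in H3.3K27M libraries, but 67.9% of the sum was Snx22, at 511 to 6520. Members had r from -0.20 to 0.17 with the full sum (unadjusted permutation p of 0.452 or more), and from -0.39 to -0.13 without libraries 6 and 8. With the full sum, which was mostly Snx22, the sign of r differed between the groups, and this difference was not tested. In H3.3WT r was 0.01 to 0.45 (exact permutation adjusted p of 0.692 or more). In H3.3K27M it was -0.60 to -0.24 (exact permutation adjusted p of 0.359 or more). Without Snx22, a choice made after its level was seen, r ran from 0.37 (H2-Oa) to 0.68 (Cd74), 7 of 8 relations had a permutation adjusted p under 0.05 by r and 4 by rho, and r ran from 0.13 to 0.70 without libraries 1 and 16. Within H3.3WT it ran from 0.19 to 0.59, with exact permutation adjusted p of 0.322 or more, and within H3.3K27M from 0.57 to 0.92, with 0.0587 or more. The sum without Snx22 also leaned on 1 gene. Itgax had medians of 1111 normalized counts in H3.3WT and 1194 in H3.3K27M libraries, and Zbtb46 followed with 209 and 370. These relations thus largely follow Itgax, and the other dendritic cell markers weigh little in them. The defining markers Xcr1 and Clec9a held 12.3 to 57.8 and 11.4 to 109 normalized counts in H3.3WT and 4.09 to 137 and 29.7 to 156 in H3.3K27M, and Cd209a was at 0 in 8 of 16 libraries. The part of dendritic cells in the class II level was not tested.

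Several interferon gamma response genes were among those nearest to the members in pattern. By the likeness of their pattern to the members' mean log2(value + 1), the 10 nearest of 14999 genes included H2-T22 (Pearson r = 0.907 over 16 libraries), Cxcl9 (0.901), Igtp (0.892), Psmb9 (0.882), Tapbpl (0.880), Klrk1 (0.876), Iigp1 (0.874), Phkg2 (0.873) and H2-D1 (0.872). H2-T22 and H2-D1 are class I genes, Psmb9 encodes an immunoproteasome subunit, Tapbpl a class I peptide editor, Cxcl9 a chemokine that draws T cells, and Igtp and Iigp1 immunity-related GTPases. Klrk1 was low, at 0 in library 8 and at most 51.4 normalized counts (library 9), so its r is less certain. Nlrc5 ranked 55th with r of 0.756, and 3.12% of the genes had r above 0.5. None of the 10 passed limma between the genotypes, with adjusted p from 0.304 (Psmb9) to 0.835 (Klrk1), and over all genes 0 of 15007 passed (0.0%).

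The 12 interferon gamma GTPase genes summed to 72358 and 67569 normalized counts in H3.3WT libraries 3 and 9, to 43748 to 54418 in H3.3K27M libraries 11, 12 and 13, and to 7081 to 27446 in the other 11. All 12 had log2 fold changes above 0, as did 50.5% of all genes, with a median of 1.22 against 0.00 over all genes tested. By limma 6 stood at an unadjusted p under 0.05, against 15.3% of all genes, and 0 were called. How far the 12 vary together was not tested, so their shared sign is not read as 12 separate observations. Irgm1 alone made up 41.2% of the summed level. Irgm2, an immunity-related GTPase gene, had 1.52 ± 0.49 (limma adjusted p = 0.257). The summed level had r of 0.643 (H2-Oa) to 0.853 (Ciita) with the members and rho of 0.518 to 0.909 (permutation adjusted p up to 0.00863 and 0.043 over 8 relations, added after the values were seen). Without libraries 3 and 9, the farthest from its median, r ran from 0.595 to 0.817. Within H3.3WT r ran from 0.533 to 0.842, the exact permutation adjusted p for H2-Oa being 0.129, and within H3.3K27M from 0.778 to 0.985, with exact permutation adjusted p of 0.0206 to 0.0435. By rank, the relation within H3.3WT was weaker for some members. There rho was 0.367 for H2-Oa, 0.467 for H2-DMa and 0.65 for H2-DMb1 (unadjusted exact permutation p = 0.336, 0.213 and 0.0666). For the other members it was 0.75 to 0.80. Libraries 4, 5 and 7 combined GTPase sums of 9928, 17430 and 13350 with Cd74 at 13146, 19927 and 10402, so not every tumour with high Cd74 was high for these GTPases.

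**Figure D5:**
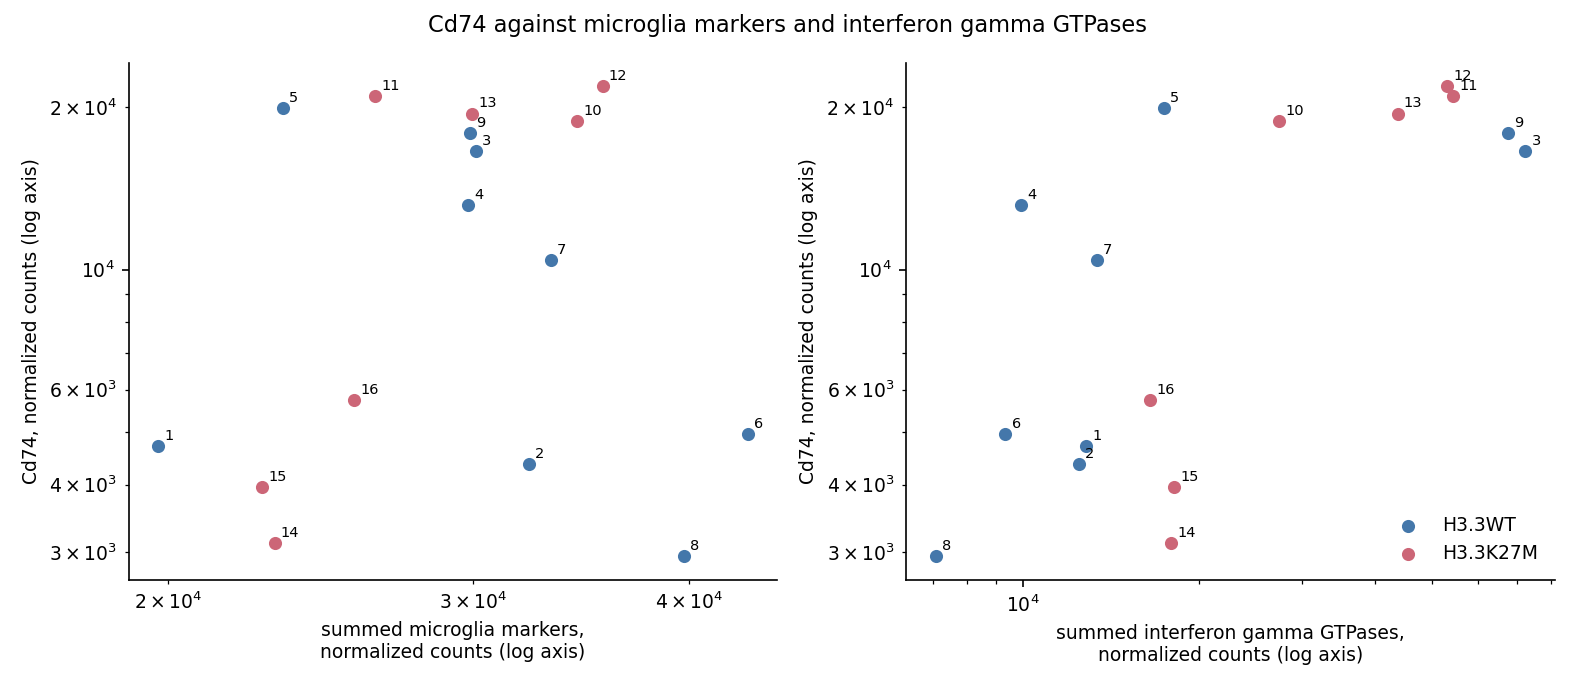
Cd74 against the summed microglia markers (left) and the summed interferon gamma GTPases (right), normalized counts on log axes, 1 numbered point per tumour, blue for H3.3WT and red for H3.3K27M. Libraries 6 and 8 combine the 2 highest microglia sums with Cd74 at 4962 or less, whereas libraries 3, 9, 11, 12 and 13 are high on both axes of the right panel.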

How the data were processed

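The deposited library columns hold a normalized signal; the submitters' processing notes name mm10, STAR 2.7, HTSeq and DESeq2, and the role of each is not given in the sources used here. Judged by the values, the authors divided each library's read counts by its own size factor: 100% of values came out as whole reads, within 0.01 reads. The authors' comparison columns hold, per the file headers, a log2 fold change with its error, a Wald score, and a p-value with its FDR adjustment. Of 23563 lines, 208 with a repeated Ensembl ID were removed.

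Values were tested as log2(value + 1) in limma 3.58.1 (trend on), keeping the 15007 genes that reached 10 normalized counts in 7 libraries, and p-values were adjusted by Benjamini-Hochberg (threshold 0.05). Ratios had exact permutation tests (11440 assignments); correlations had 100000 resamples, or every ordering within a group. Alternatives used DESeq2 1.42.0 and edgeR 4.0.16 in R 4.3.3, and the steps were checked on simulated counts. There limma called 4% of the 1.5-fold, 48% of the 2-fold, 84% of the 4-fold and 94% of the 8-fold changes, and 8 unchanged genes. The changed genes were drawn at random from those passing the filter, so these shares are not those of the members. Small changes would mostly have been missed. Exons came from GENCODE M21 and promoters from RefSeq GRCm38.p6. The members and lists were chosen with earlier results of these data known. Named genes were the members, up to 4 genes per list with the smallest p, the 10 of the nearest pattern, and Nlrc5; other genes were named after their values were seen. Some genes under this rule are not reported here. The labels do not say which tumours share a litter, and p-values measure the spread between libraries. No paired analysis was run, because the labels state no pairing of tumours between the genotypes and the columns carry no replicate numbers.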

Additional observations from a re-analysis of the deposited data

Results flagged for a closer look

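Of 68 tests for a library far from the rest of its group (34 quantities in 2 groups, on the log2 scale), 2 met Dixon's 95% limit, where chance gives about 1 in 20. The log2 ratio of H2-Ab1 to Cd74 was -1.58 in H3.3K27M library 10, and the nearest other H3.3K27M library had -0.93; library 10 held 6294 normalized counts of H2-Ab1 and 18801 of Cd74. The summed T cell markers were 71.2 normalized counts in H3.3WT library 1, and the nearest other H3.3WT library had 157. Library 1 was also the lowest of the 16 for Ciita, H2-DMb1 and H2-Oa.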

How the results depend on the processing

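The count of members called was 0 under all 28 alternatives run. The count over all genes, 0 by limma, was 107 by DESeq2 and 2 by limma voom with quality weights, and 0 to 13 when 1 library was left out (1 without library 3 and 13 without library 10). When 1 library was left out, the log2 fold change ran from 1.00 to 1.73 for Ciita, 0.17 to 0.68 for H2-Aa, -0.042 to 0.44 for H2-Ab1, 0.10 to 0.62 for H2-Eb1, -0.14 to 0.26 for H2-DMa, 0.22 to 0.64 for H2-DMb1, 0.17 to 0.77 for H2-Oa and 0.07 to 0.55 for Cd74. Without libraries 6 and 8 it was -0.15 for H2-Ab1, -0.041 for H2-Eb1, -0.040 for H2-DMa and -0.070 for Cd74; the cause was not tested. The ratio of H2-Ab1 to Cd74 differed by -0.15 to 0.0044 when 1 library was left out, the top value coming without library 10. No other member changed sign under TMM or upper quartile scaling, pseudocounts of 0.5 and 5, no filter, edgeR, DESeq2, voom, or removal of a trend on exon length or GC content, and neither did those named. With a minimum mean of 50 normalized counts H2-Oa gave no value. All 7 relations of Ciita and 0 of the 16 with cell markers passed with a pseudocount of 5 and without libraries 6 and 8, as they did with all. No paired analysis was possible because the columns carry no replicate numbers. Low genes are known least well in library 8, the shallowest.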

Other observations

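Other genes of antigen-presenting and lymphoid cells were measured beside class II, and 0 of them passed limma between the genotypes. Over all genes tested, 0 of 15007 passed (0.0%) and 50.5% had a log2 fold change above 0. Cd40, a costimulatory receptor gene of antigen-presenting cells, averaged 169 ± 55.3 normalized counts in H3.3WT tumours (SD, n = 9) against 97.3 ± 51.6 in H3.3K27M tumours (SD, n = 7) (log2 fold change -0.86 ± 0.31, limma adjusted p = 0.261). Of the 5 costimulation genes tested, 2 were above 0 and 3 below. Monocyte and macrophage markers had 3 of 9 above 0 (median -0.24); Ccr2, a monocyte receptor gene, averaged 71.6 ± 74.9 and 132 ± 83.8, and Mrc1, a macrophage lectin gene, 214 ± 118 and 167 ± 144. All 3 B cell markers tested were below 0 (median -0.84). T cell markers summed to 71.2 to 344 in H3.3WT and 101 to 557 in H3.3K27M libraries, with 3 of 6 tested genes above 0. Natural killer cell markers summed to 17.0 to 102 and 33.8 to 146, and Ncr1 was at 0 in 12 of 16 libraries.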
